A study of Homo sapiens with 16 samples.

Results

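Cadherins and protocadherins are calcium-dependent adhesion receptors of the cell surface, and 45 of their genes were followed here through a knockdown of the EWS-FLI1 fusion in Ewing sarcoma cells. The members were all genes whose symbol is CDH with a number or begins with PCDH and which had a probe set annotated to that symbol alone. They made up 45 of 11963 genes so annotated and were measured by 62 probe sets. Counts use 1 probe set per gene, the one with the highest mean over all arrays.

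The cells were A673, an established Ewing sarcoma line driven by EWS-FLI1, a fusion that joins part of EWSR1 to the DNA-binding part of the ETS factor FLI1. A single clone, Asp14, was used, which carries a hairpin construct that doxycycline switches on to knock down EWS-FLI1. Every group carried this construct, and all cells were grown with Zeocin and Blasticidin to keep both of its vectors. RNA was measured on 16 Affymetrix arrays. 4 of these were taken at 0 h, when doxycycline was added, and the others in doxycycline at 1 ug/ml, 3 each after 18 h and 36 h and 2 each after 53 h, 72 h and 96 h. Nothing in the labels says that replicates came from different cultures, and the p-values here measure only how far these arrays differed, which may be technical. No untreated sample was taken after 0 h among those analysed here, so time in culture, doxycycline itself and loss of the fusion cannot be told apart.

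Classical cadherins bind the same cadherin on a neighbouring cell and hold actin through catenins. E-cadherin (CDH1) is the form typical of epithelia, N-cadherin (CDH2) that of mesenchymal and neural cells, and type II cadherins such as CDH8 and CDH11 mark particular neuronal and mesenchymal populations. Protocadherins lack the catenin-binding tail of classical cadherins. The clustered ones lie in alpha, beta and gamma arrays of genes and give neurons their surface identity, and the non-clustered ones act in sorting and outgrowth of cells, mainly in the nervous system. Ewing sarcoma is a tumour of bone and soft tissue with mixed mesenchymal and neural features.

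Values are log2 expression made by the authors with GCRMA, on which a difference of 1 is a 2-fold change. The arrays had upper quartiles of 8.08 to 8.18, and their small number sets the limit on precision. FLI1, read as the check of the knockdown, was at 10.08 ± 0.07 (SD, n = 4) at 0 h, and its log2 change lay between -3.08 and -3.67 at the 5 later times. Whether its probe set covers the part of FLI1 in the fusion was not analysed here. Of the Ewing sarcoma markers, 6 of 8 were on the array and none was below log2 4 throughout. Their mean level, which includes FLI1 itself, was 8.69 to 8.87 at 96 h, against 11.1 to 11.4 at 0 h. CD99 moved little, at 13.15 and 13.31 at 96 h against 13.39 to 13.83 at 0 h, while NKX2-2, STEAP1, CCND1 and BCL11B fell further. All 5 blood cell markers on the array and 8 of 9 epithelial markers were below log2 4 on all 16 arrays. The exception was KRT18, at 8.67 to 9.69 at 0 h, 6.92 to 7.70 at 36 h and 10.02 on each 96 h array. Replicate 1 stood apart from replicates 2 and 3 at 0 h, 18 h and 36 h, with an SD of the difference over genes of 0.41 to 0.53, against 0.16 to 0.19 between replicates 2 and 3. Replicate 4 of 0 h stood apart too, at 0.37 from replicates 2 and 3 and 0.46 from replicate 1.

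By probe sets annotated to 1 gene alone, most of the family was not detected above the dim range. A gene was tested where its probe set reached log2 4 on at least 2 arrays, which 15 of the 45 members did, against 7304 of 11963 genes overall. Of the other 30, 29 were below log2 4 on all 16 arrays, and PCDHA10 reached 4.18 on a single array at 72 h. The untested genes were the type I cadherins CDH1, CDH3 and CDH15, the type II cadherins CDH5, CDH6, CDH7, CDH9, CDH12, CDH18, CDH19, CDH20 and CDH22, and CDH16 and CDH17. Among protocadherins they were PCDH1, PCDH11X, PCDH12, PCDHA2, PCDHA5, PCDHA9, PCDHA10, PCDHB1, PCDHB17P, PCDHGA1, PCDHGA3, PCDHGA9, PCDHGA10, PCDHGB5, PCDHGB6 and PCDHGC3. Brighter probe sets shared between genes exist for some of these. PCDHA2, PCDHA5, PCDHA9 and PCDHA10 share 210674_s_at with other alpha genes, which read 8.37 to 10.76. PCDH11X shares 210292_s_at with PCDH11Y, which read up to 5.77. E-cadherin, CDH1, ranged only from 2.20 to 2.26 over the 16 arrays. CDH5, the cadherin of endothelium, ranged from 2.31 to 2.38.

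The tested members were 1 of 4 type I cadherins (CDH2), 3 of 12 type II cadherins (CDH8, CDH10, CDH11), 4 of 7 non-clustered protocadherins (PCDH7, PCDH8, PCDH9, PCDH17) and 7 of 20 clustered ones. The last were 6 of 8 beta genes, 1 of 8 gamma genes and 0 of 4 alpha genes. 10 of the 15 reached log2 4 on every array and CDH8 did on 12. PCDH8, PCDH9, PCDHB6 and CDH10 reached it on 2 to 4 arrays, so the first 3 could enter the test only through groups in which they were high, and CDH10 only through replicate 1.

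**Figure D1:**
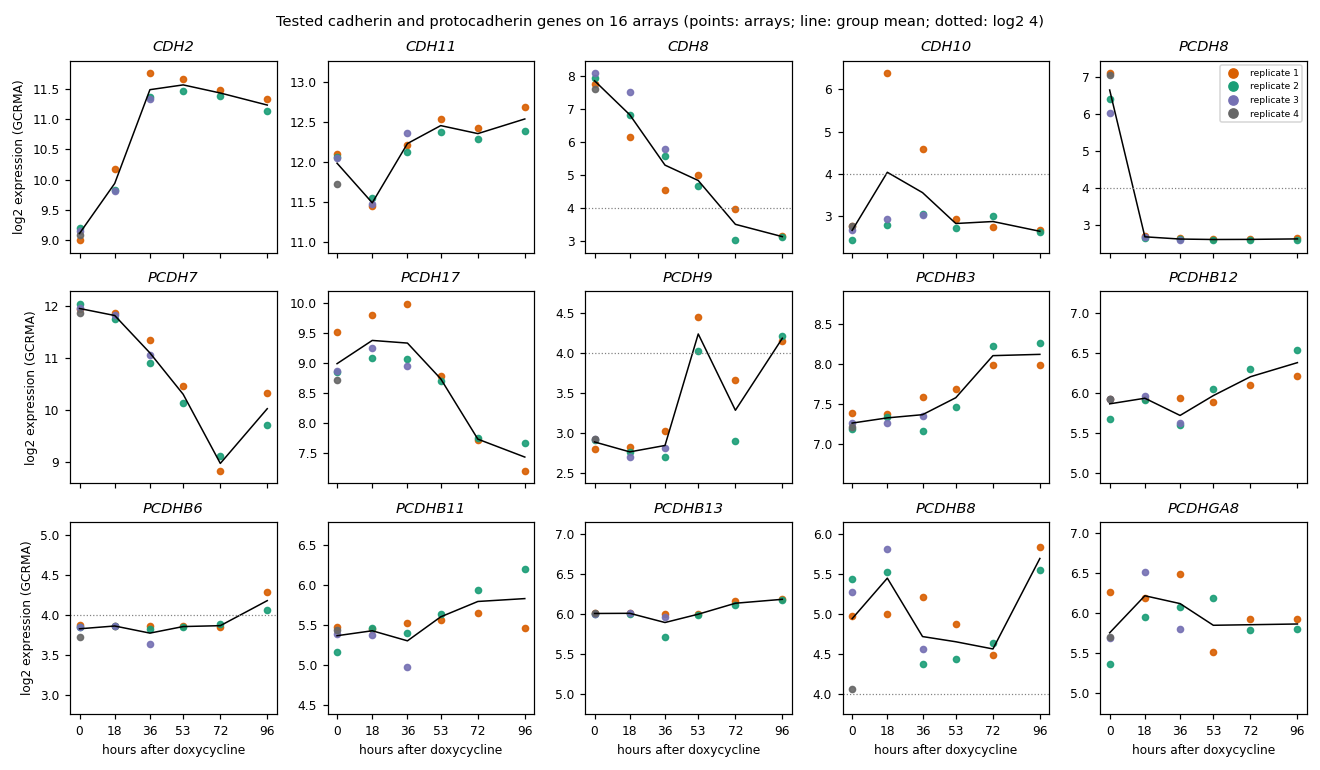
Log2 expression (GCRMA) of the 15 tested members on each of the 16 arrays, plotted against hours after doxycycline. Points are arrays coloured by replicate number, lines join group means, and the dotted line is log2 4, drawn where it falls in the panel. CDH2 sits at 11.12 or above from 36 h and between 9.0 and 9.20 at 0 h, PCDH8 is above 6 only at 0 h, and CDH10 passes log2 4 only on replicate 1 arrays at 18 h and 36 h.

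The number of members that changed grew with time, and they split between higher and lower genes throughout. Calls are limma adjusted p under 0.05 over all tested genes. At 18 h against 0 h 1 member was higher and 3 were lower, 26.7% of the members. Of all tested genes 14.8% were higher and 14.7% lower, 29.4% together. At 36 h 2 members were higher and 3 lower (33.3%), while 33.2% of all genes were higher and 32.1% lower (65.3%). At 53 h the members stood at 3 and 3 (40.0%), and all genes at 31.8% higher and 34.5% lower (66.3%). By 72 h 4 members were higher and 4 lower (53.3%), with 29.3% of all genes higher and 39.2% lower (68.5%). At 96 h 6 members were higher and 4 lower (66.7%), with 25.1% of all genes higher and 35.7% lower (60.8%). The members' share was near that of all genes at 18 h and 96 h and below it in between. The moderated F test over the time course called 9 members (60.0%), against 84.0% of all genes. The median log2 change at 96 h was 0.35 over the 15 members and -0.10 over all tested genes, and at 72 h 0.13 and -0.11. The 96 h median is the value of PCDHB6, which passed the filter only through 96 h. PCDH9, also higher at 96 h, passed it only through 53 h and 96 h. PCDH8, lower at all 5 times, passed it only through 0 h. The counts at all 5 times, the F test count and the 96 h median thus include members let in by groups in which they were high. With the replicate number of all 16 arrays as a block, 4, 4, 6, 7 and 9 members were called at the 5 times. A pairing by number was seen only among 0 h, 18 h and 36 h, so at later times the block is only another setting of the fit.

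**Figure D2:**
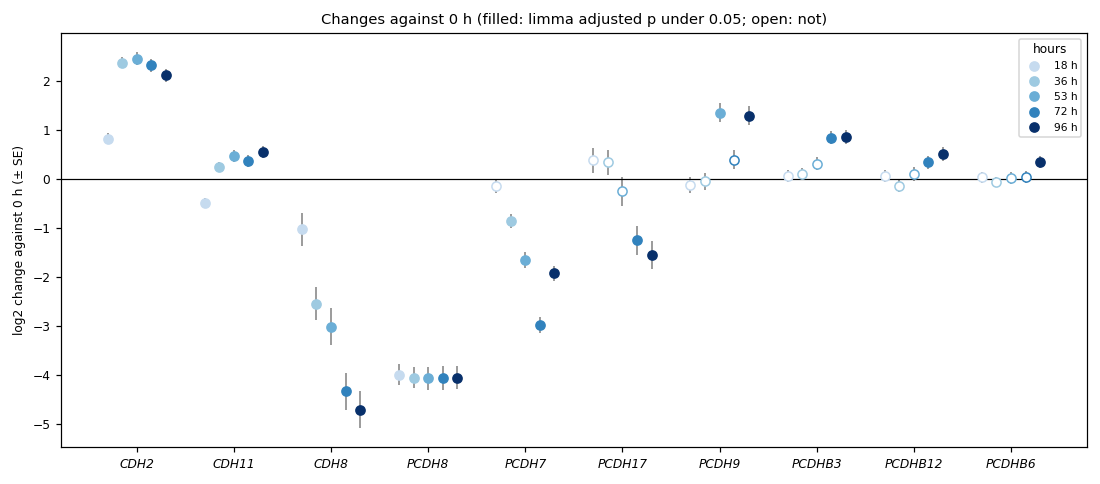
Log2 change against 0 h, with its SE from limma, for the 10 members called at any time, from 18 h (lightest) to 96 h (darkest). Filled points passed an adjusted p of 0.05 and open points did not. CDH2 is higher at all 5 times, CDH8 and PCDH8 lower at all 5, and PCDH7 and PCDH17 fall later.

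N-cadherin, CDH2, was the type I cadherin that changed and it was higher at every time after doxycycline. Its probe set read 9.0, 9.20, 9.16 and 9.09 at 0 h, 10.17, 9.83 and 9.81 at 18 h, and 11.76, 11.37 and 11.32 at 36 h. At 53 h it read 11.66 and 11.47, at 72 h 11.47 and 11.38, and at 96 h 11.34 and 11.12. No array after doxycycline overlapped the 0 h arrays, and most of the rise had taken place by 36 h. In time order from 18 h to 96 h, the log2 changes against 0 h were 0.83 ± 0.12 (SE), 2.37 ± 0.12, 2.45 ± 0.13, 2.32 ± 0.13 and 2.12 ± 0.13. The levels were thus 1.77-fold, 5.18-fold, 5.48-fold, 4.99-fold and 4.35-fold higher, with limma adjusted p of 0.000272 at 18 h and at most 2.49e-08 later. From 18 h to 36 h the change was 1.55 ± 0.13 (adjusted p = 1.14e-06), and no later step between consecutive times passed the threshold. The second probe set of CDH2, 203441_s_at, changed by 0.68, 2.36, 2.60, 2.72 and 2.55 at the 5 times.

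The promoter of CDH2 is shown because FLI1 is known to bind a GGAA core and the gene rose after doxycycline. The RefSeq window (GRCh38.p14, chr18:28177131-28177380, minus strand, the 250 bases before the start) is given 5′ to 3′ with GGAA and its reverse complement TTCC in capitals, 4 in all.
CDH2: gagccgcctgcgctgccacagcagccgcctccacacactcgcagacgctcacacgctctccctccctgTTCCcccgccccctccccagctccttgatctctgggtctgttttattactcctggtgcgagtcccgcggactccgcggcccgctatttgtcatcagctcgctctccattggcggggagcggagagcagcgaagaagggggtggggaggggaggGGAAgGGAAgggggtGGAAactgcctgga

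Among type II cadherins, CDH11 and CDH8 moved in different ways. CDH11, or OB-cadherin, is known from osteoblasts and other mesenchymal cells. It read 12.11, 12.07, 12.06 and 11.73 at 0 h, 11.45, 11.55 and 11.49 at 18 h, and 12.22, 12.13 and 12.37 at 36 h. At 53 h it read 12.55 and 12.38, at 72 h 12.43 and 12.30, and at 96 h 12.70 and 12.39. CDH11 was therefore lower at 18 h than on any 0 h array and higher on every array from 36 h on. The log2 change was -0.49 ± 0.10 at 18 h (limma adjusted p = 0.00283). From 36 h to 96 h the changes were 0.25 ± 0.10, 0.47 ± 0.11, 0.37 ± 0.11 and, last, 0.55 ± 0.11 (adjusted p = 0.000894). At 96 h against 18 h it was 1.05 ± 0.12 higher, or 2.07-fold. The 36 h call (adjusted p = 0.0447) was lost with the replicate block, at 0.16 (adjusted p = 0.102), and 207172_s_at, its other probe set, changed by -0.01 at 36 h (adjusted p = 0.961). It was also lost in 9 of 16 omissions of a single array (0 h replicates 3 and 4, each 18 h array, 36 h replicates 1 and 3, each 72 h array), with changes of 0.16 to 0.27 (adjusted p up to 0.182). Without 72 h replicate 1 the 72 h call was lost (adjusted p = 0.102).

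CDH8, a type II cadherin of brain neurons, fell in steps. It read 7.76, 7.94, 8.07 and 7.60 at 0 h, 6.15, 6.81 and 7.49 at 18 h, and 4.54, 5.56 and 5.80 at 36 h. At 53 h it read 5.00 and 4.67, at 72 h 3.99 and 3.04, and at 96 h 3.15 and 3.14. Every array after doxycycline lay below every 0 h array, and by 72 h all were in the dim range. The log2 change was -1.03 ± 0.34 at 18 h, -2.54 ± 0.34 at 36 h and -3.01 ± 0.38 at 53 h, or 2.04-fold, 5.83-fold and 8.04-fold lower. At 72 h and 96 h it was at least 14.3-fold lower (limma adjusted p = 2.68e-07 and 2.98e-07), where the bound sets the 0 h mean against log2 4, since neither of its probe sets reached 4 there. The 18 h call (adjusted p = 0.0349) was lost when 18 h replicate 1 was left out, at -0.69 (adjusted p = 0.179), and without 0 h replicate 2 or 3 or 18 h replicate 2 (adjusted p = 0.072, 0.082 and 0.0796). Its other probe set was below log2 4 on all 16 arrays. CDH10, the third tested type II cadherin, known from brain, read 6.38 and 4.59 on replicate 1 at 18 h and 36 h and at most 3.05 on the other 14 arrays, and none of its comparisons passed the test.

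The RefSeq window of CDH8 (GRCh38.p14, chr16:62036439-62036688, minus strand, the 250 bases before the start) is shown beside that of CDH2 because the gene fell where CDH2 rose. It held 4 GGAA or TTCC matches, in capitals.
CDH8: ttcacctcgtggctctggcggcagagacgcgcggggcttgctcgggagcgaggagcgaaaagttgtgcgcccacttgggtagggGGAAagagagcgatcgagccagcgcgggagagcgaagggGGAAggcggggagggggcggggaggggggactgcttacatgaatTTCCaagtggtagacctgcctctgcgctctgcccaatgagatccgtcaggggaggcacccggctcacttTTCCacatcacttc

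Among the non-clustered protocadherins, PCDH8 was lost at once, PCDH7 and PCDH17 fell later, and PCDH9 was higher at 53 h and 96 h. PCDH8, whose Xenopus counterpart is known as paraxial protocadherin, lay between 2.58 and 2.69 on all 12 arrays after doxycycline, against 7.12, 6.42, 6.03 and 7.07 at 0 h. It was at least 6.32-fold lower at each of the 5 times than at 0 h (limma adjusted p between 4.97e-09 and 8.38e-08). PCDH8 reached log2 4 only at 0 h, so it entered these tests only through the group in which it was high. The fitted log2 changes of -3.99 to -4.06 are no measure of its size, since the later arrays are at the dim end. Between 18 h and 96 h PCDH8 did not pass the test (log2 change -0.06, adjusted p = 0.872).

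The window of PCDH8 (GRCh38.p14, chr13:52848641-52848890, minus strand, the 250 bases before the start) held 5 GGAA or TTCC matches, in capitals.
PCDH8: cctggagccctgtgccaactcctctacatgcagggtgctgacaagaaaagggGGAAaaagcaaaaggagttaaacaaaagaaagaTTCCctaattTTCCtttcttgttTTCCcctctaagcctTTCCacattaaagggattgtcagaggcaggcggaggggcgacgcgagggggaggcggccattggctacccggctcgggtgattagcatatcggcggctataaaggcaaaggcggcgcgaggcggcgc

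A GGAA match is no mark of these genes. Over both strands of the full windows of 300 bases, which run to 50 bases after the start, GGAA was found in 12 of 12 tested members with a listed window and in 95.5% of all 27305 genes. GGAAGGAA, a pair of GGAA as in the repeats that EWS-FLI1 is known to bind, was found in 0 of the 12 and in 3.59% of all genes. CAGGTG, an E-box of the kind bound by SNAI and ZEB factors, was found in 0 of the 12 and in 20.6% of all genes. GGAAGGAA also counts as a GGAA match. Windows were listed for 33 of the 45 members, and a window without a match says only that these letters are not in it.

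PCDH7, a non-clustered protocadherin, fell progressively until 72 h. Its brightest probe set read 11.95, 12.04, 11.96 and 11.86 at 0 h, 11.87, 11.76 and 11.82 at 18 h, and 11.34, 10.89 and 11.05 at 36 h. It read 10.47 and 10.13 at 53 h, 8.83 and 9.11 at 72 h, and 10.33 and 9.72 at 96 h. From 36 h on each array was below each 0 h array, with the lowest at 72 h. The 18 h change of -0.13 ± 0.14 did not pass (adjusted p = 0.515). From 36 h to 96 h the log2 changes were -0.85 ± 0.14, -1.65 ± 0.16, -2.98 ± 0.16 and -1.93 ± 0.16, which put PCDH7 7.88-fold lower at 72 h and 3.80-fold lower at 96 h. The level at 96 h was 1.05 ± 0.19 above that at 72 h (limma adjusted p = 0.00095), by this probe set alone.

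The 4 probe sets of PCDH7 did not move alike. Probe sets 205535_s_at and 210941_at also fell, by 2.31 and 3.57 on the log2 scale at 72 h, and between 72 h and 96 h they changed by 0.35 and -0.37, which did not pass (adjusted p = 0.106 and 0.180). In contrast 210273_at was 0.82 higher at 36 h than at 0 h (adjusted p = 0.00139) and 0.61 higher at 53 h (adjusted p = 0.0195), and its log2 change was -0.01 at 72 h and -0.27 at 96 h, a step of -0.26 (adjusted p = 0.481). With the mean of all 4 probe sets, PCDH7 changed by -0.49, -0.99, -2.22 and -2.03 from 36 h to 96 h, all past the threshold.

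**Figure D3:**
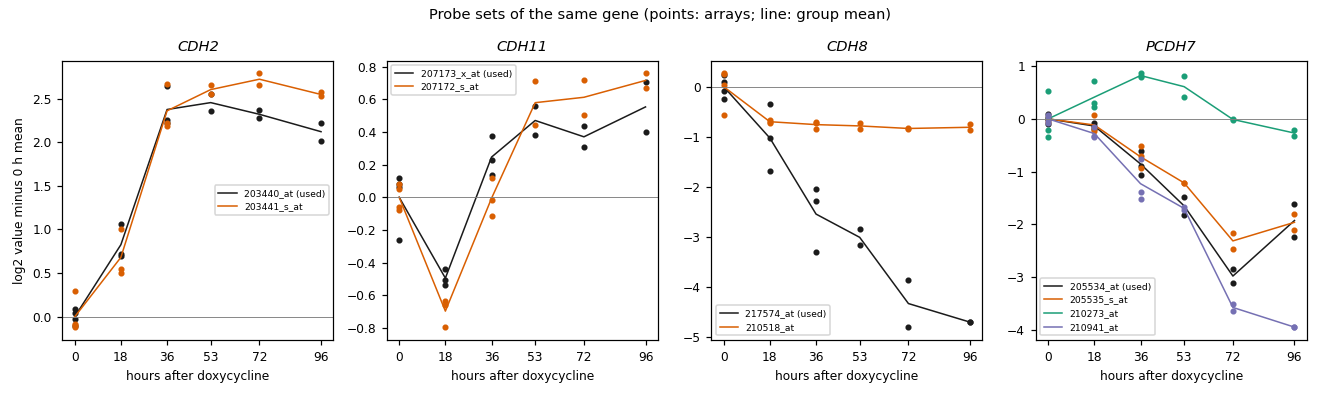
Log2 value minus the 0 h mean for each probe set of CDH2, CDH11, CDH8 and PCDH7, against hours after doxycycline. Points are arrays, lines join group means, and the probe set used in counts is black. Both sets of CDH2 lie above their 0 h mean at all 5 times, the sets of CDH11 are at 0.25 and -0.01 at 36 h, the second set of CDH8 lies below log2 4 on every array, and 210273_at of PCDH7 rises by 0.82 at 36 h while the other 3 sets fall.

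PCDH17, a non-clustered protocadherin of the nervous system, was lower at 72 h and 96 h. It read 9.52, 8.86, 8.86 and 8.71 at 0 h, 9.79, 9.08 and 9.25 at 18 h, 9.98, 9.06 and 8.95 at 36 h, and 8.78 and 8.70 at 53 h. It read 7.73 and 7.75 at 72 h, and 7.21 and 7.67 at 96 h. The 4 late arrays were below all the others, and at 0 h, 18 h and 36 h replicate 1 was the highest array of its group. The log2 change was -1.25 ± 0.29 at 72 h (limma adjusted p = 0.00166) and -1.55 ± 0.29 at 96 h (adjusted p = 0.000436), or 2.38-fold and 2.92-fold lower. The earlier changes of 0.39, 0.34 and -0.25 did not pass.

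PCDH9, another non-clustered protocadherin expressed in brain, stayed dim. It read 2.80, 2.91, 2.92 and 2.92 at 0 h, 2.83, 2.77 and 2.70 at 18 h, and 3.02, 2.70 and 2.81 at 36 h. It read 4.45 and 4.03 at 53 h, 3.67 and 2.90 at 72 h, and 4.16 and 4.22 at 96 h. The arrays of 53 h and 96 h were above every other array, and PCDH9 entered the test only through them. PCDH9 was at least 1.18-fold higher at 53 h (limma adjusted p = 3.28e-05) and at least 1.14-fold higher at 96 h (adjusted p = 6.63e-05) than at 0 h, and its 72 h change of 0.40 did not pass (adjusted p = 0.0831). A second probe set of PCDH9 was below log2 4 throughout.

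Among clustered protocadherins, 3 of 6 tested beta genes were higher at 96 h and the tested gamma gene was not called. Of all tested genes 25.1% were higher at 96 h, and 1 of the 3, PCDHB6, reached log2 4 on no array outside 96 h, the group in which it was called. 5 of these beta genes were read by probe sets of the _x_at kind, which can take up transcripts of related genes, so how much of each value comes from the other members of the cluster is uncertain. PCDHB3 ranged from 7.19 to 7.38 at 0 h, and read 7.99 and 8.23 at 72 h and 7.98 and 8.26 at 96 h, with no overlap. Its log2 change was 0.84 ± 0.13 at 72 h (limma adjusted p = 7.59e-05) and 0.86 ± 0.13 at 96 h (adjusted p = 0.000104), or 1.79-fold and 1.81-fold higher. PCDHB12 read 6.22 and 6.55 at 96 h, against 5.68 to 5.93 at 0 h. It was 0.34 ± 0.14 higher at 72 h (adjusted p = 0.0441) and 0.51 ± 0.14 higher at 96 h (adjusted p = 0.00583). The 72 h call was lost with the replicate block (adjusted p = 0.0766) and in 8 of 16 omissions of a single array (0 h replicates 2 and 3, each 18 h array, 36 h replicate 3, each 72 h array; adjusted p up to 0.277), and the 96 h call without 96 h replicate 2 (adjusted p = 0.102).

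PCDHB6 was at 4.29 and 4.07 at 96 h against 3.73 to 3.87 at 0 h, at least 1.13-fold higher (limma adjusted p = 0.0211). That call was lost with the replicate block (adjusted p = 0.0846) and without 96 h replicate 1 (adjusted p = 0.167). The other clustered genes tested did not pass at any time against 0 h. Their values over the 16 arrays ranged from 4.97 to 6.19 for PCDHB11, from 5.71 to 6.20 for PCDHB13, from 4.06 to 5.84 for PCDHB8 and from 5.37 to 6.51 for PCDHGA8.

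Clustered protocadherin promoters are known to share a conserved element with CGCT at its core, and the copies in the tested beta genes are shown for that reason. The letters TGGCGCTG, on either strand of the window of 300 bases, were found in 4 of 12 tested members with a window, all of them beta genes, in 23.5% of 17 clustered members and in 1.91% of all genes. The stretches below are from RefSeq GRCh38.p14, plus strand, 5′ to 3′, with TGGCGCTG in capitals. They lie at chr5:141100396-141100423 (PCDHB3), chr5:141208646-141208673 (PCDHB12), chr5:141213868-141213895 (PCDHB13) and chr5:141177780-141177807 (PCDHB8, where it begins at the start itself).
PCDHB3: gaacgcatggTGGCGCTGttgactaaga
PCDHB12: agacgcgtggTGGCGCTGcaggataata
PCDHB13: ggacgcgtggTGGCGCTGcaggataaga
PCDHB8: ggacccgtggTGGCGCTGcaggataaga
The genes that hold it include PCDHB3 and PCDHB12, which rose, and PCDHB13 and PCDHB8, which did not pass. PCDHB6 and PCDHB11 had no listed window, so no tested beta gene without the element could be compared. Its part in the changes was not tested.

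Among the 12 arrays with doxycycline, 96 h was compared with 18 h without using 0 h. 5 members were higher (CDH2, CDH11, PCDH9, PCDHB3, PCDHB12) and 3 were lower (CDH8, PCDH7, PCDH17), 53.3% of the members. Of all tested genes 19.5% were higher and 30.0% lower, or 49.4%. CDH8 was at least 7.04-fold lower (limma adjusted p = 8.13e-06) and PCDH17 3.82-fold lower (adjusted p = 0.00019). PCDHB3 was 1.73-fold higher (adjusted p = 0.000479). The PCDHB12 call (0.44) was lost without 18 h replicate 2 (adjusted p = 0.0557) and without 96 h replicate 2, at 0.28 (adjusted p = 0.231).

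Steps between consecutive times, chosen after values were seen, place the changes. Between 18 h and 36 h CDH2 and CDH11 rose and CDH8 and PCDH7 fell, while 21.9% of all tested genes rose and 22.9% fell (44.8%). From there to 53 h PCDH9 rose and PCDH7 fell, with 5.37% of all genes higher and 7.23% lower (12.6%). Between 53 h and 72 h PCDHB3 rose by 0.53 ± 0.16, and PCDH7 and PCDH9 fell, with 5.61% of all genes higher and 11% lower (16.6%). Between 72 h and 96 h PCDH9 rose, PCDH7 rose by 1 of its 4 probe sets, and 0 members fell, with 17.1% of all genes higher and 10.1% lower (27.2%). PCDH9 changed by -0.95 ± 0.22 and then 0.90 ± 0.22 in these last steps (limma adjusted p = 0.0105 and 0.00866), near log2 4, and its 72 h arrays of 3.67 and 2.90 differed more than those of its other groups. Both PCDH9 calls were lost without 72 h replicate 2 (adjusted p = 0.111 and 0.104), and the first also without 53 h replicate 1 (adjusted p = 0.123). The PCDHB3 step was lost with the replicate block (adjusted p = 0.0506) and without any 1 of the arrays of 53 h and 72 h (adjusted p = 0.0594 to 0.228). The fall of PCDH7 between 36 h and 53 h was lost without 53 h replicate 2, at -0.63 (adjusted p = 0.117), and its rise between 72 h and 96 h with the mean of its 4 probe sets, at 0.19 (adjusted p = 0.371). The block added calls for CDH8 and PCDH17 between 53 h and 72 h, at -1.32 and -1.0 (adjusted p = 0.0385 and 0.0325), and for PCDHB8, at -0.73 between 18 h and 36 h and 1.13 between 72 h and 96 h (adjusted p = 0.0431 and 0.0243).

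Markers of other cell types were read beside these changes. The mean level of 6 fibroblast and smooth muscle markers, of which none was below log2 4 on all arrays, was 7.98 to 8.33 at 0 h, 10.1 to 10.4 at 36 h, 10.8 to 10.9 at 53 h and 9.87 to 10.2 at 96 h. The mean of 7 endothelial markers was 4.63 to 4.66 at 72 h, against 3.57 to 3.75 at 0 h, with 4 of them, CDH5 included, below log2 4 throughout. The rise lay in KDR, at 7.51 and 7.24 at 72 h against 3.44 to 3.84 at 0 h, in EMCN, at 11.66 and 11.59 against 8.85 to 9.90, and in CLDN5, at 3.75 and 4.01 against 2.63 to 2.72. The mean of 5 neuron and glia markers was 3.99 to 4.22 at 36 h, 3.97 to 3.99 at 53 h and 2.70 to 2.94 at 96 h, against 2.97 to 3.07 at 0 h, with SYP, STMN2 and GFAP below log2 4 throughout. MAP2, a microtubule protein of neurons, read 5.58 to 6.48 at 36 h, against 2.32 to 2.37 at 0 h, and SNAP25, a protein of synaptic release, 6.97 to 7.24 at 36 h, against 5.09 to 5.59 at 0 h. RNA quality was read from ACTB, as its 3′ signal minus its 5′ signal on the log2 scale, which was 1.47 to 2.06 at 0 h, 2.09 to 2.45 at 36 h and 1.56 to 1.83 at 96 h. Their part in the changes of CDH2, CDH11 and the other members was not tested. In these bulk samples, fewer cells of a type and less RNA per cell cannot be told apart.

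The junction partners of cadherins also moved in both directions, as counted over lists that were chosen with earlier results of these data known. Of all tested genes, in time order from 18 h to 96 h, 14.8%, 33.2%, 31.8%, 29.3% and 25.1% were higher and 14.7%, 32.1%, 34.5%, 39.2% and 35.7% lower, and the counts of each list stand beside these shares. Of 15 catenins and linkers on the array, 8 were tested, and from 18 h to 96 h 2, 5, 4, 4 and 3 were higher and 1, 2, 1, 2 and 3 lower. The median log2 change of the list at 96 h was 0.20, and that of all genes -0.10. JUP (plakoglobin) rose to 9.07 at 96 h, against 6.96 at 0 h (2.10 ± 0.14). CTNNA1 (alpha-catenin), which links cadherins to actin, rose by 0.59 ± 0.07. PKP1, a desmosomal plakophilin, fell by 3.17 at 96 h (SE 0.12). Beta-catenin, CTNNB1, which carries the cadherin tail, passed only at 36 h (0.31 ± 0.12, limma adjusted p = 0.0329).

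Other members of the cadherin superfamily numbered 20 on the array and 6 tested, of which 3 rose and 3 fell from 36 h to 72 h, while at 96 h 2 were higher and 3 lower, beside 25.1% and 35.7% of all genes. DCHS1, the ligand of FAT4 in planar polarity, was 4.03 ± 0.50 higher at 72 h and 2.44 ± 0.50 higher at 96 h. CLSTN1 (calsyntenin) was 0.70 ± 0.15 higher at 96 h. CLSTN2, another calsyntenin, read 2.54 and 2.52 at 96 h, against 4.06 to 4.78 at 0 h, at least 1.46-fold lower (limma adjusted p = 0.00046). CLSTN2 reached log2 4 only at 0 h and on 18 h replicate 1, so it entered the test only through arrays in which it was high. The median change of the list at 96 h was -0.35, against -0.10 over all genes.

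Repressors of E-cadherin transcription were tested in 7 of 7 on the array. At 53 h and 72 h 5 had risen and 1 had fallen, and at 96 h 3 were higher and 2 lower, beside 31.8% and 34.5% of all genes at 53 h, 29.3% and 39.2% at 72 h and 25.1% and 35.7% at 96 h, while CDH1 itself stayed at the dim end. SNAI2 (Slug) was already 1.94 higher at 18 h, was 3.96 higher by 53 h and 1.66 ± 0.32 higher at 96 h. Between 72 h and 96 h it fell by 1.79 (adjusted p = 0.00266). ZEB1 read 5.72 and 5.61 at 72 h and 4.50 and 4.35 at 96 h, against 2.53 to 2.71 at 0 h, at least 3.16-fold and 1.34-fold higher (limma adjusted p = 3.48e-09 and 1.15e-06). TCF3 fell by 1.04 at 96 h (SE 0.11). The list's median change was 1.21 at 72 h and 0.33 at 96 h, against -0.11 and -0.10 over all genes. SNAI1 reached log2 4 only on 53 h replicate 1 and 72 h replicate 2, and ZEB1 only at 53 h, 72 h and 96 h. Both thus entered the test only through groups in which they were high, and the counts and medians include them.

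Of proteases that process or shed cadherins, 5 were tested and 5 of 5 were higher at 96 h, with 1, 3, 3 and 4 higher at the earlier times and none lower at any time. Of all genes 25.1% were higher at 96 h, and the median change was 1.49 over the list and -0.10 over all genes. MMP3 passed the filter only through 96 h. MMP2 rose by 3.74 ± 0.15 at 72 h and 3.10 ± 0.15 at 96 h. MMP3 read 4.86 and 5.41 at 96 h and at most 2.69 on the other 14 arrays. FURIN, which cleaves the cadherin prodomain, rose by 1.49 ± 0.17 at 96 h. Among 6 tested nectins and tight junction partners, 2 were higher and 1 lower at 96 h, beside 25.1% and 35.7% of all genes, and the median change was -0.02, against -0.10 over all genes. CLDN1 (claudin 1) read 3.85 and 3.71 at 96 h, against 7.92 to 8.58 at 0 h, at least 19.4-fold lower (limma adjusted p = 5.3e-08). NECTIN3 was 0.49 ± 0.16 and TJP1 (ZO-1) 0.39 ± 0.15 higher at 96 h.

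**Figure D4:**
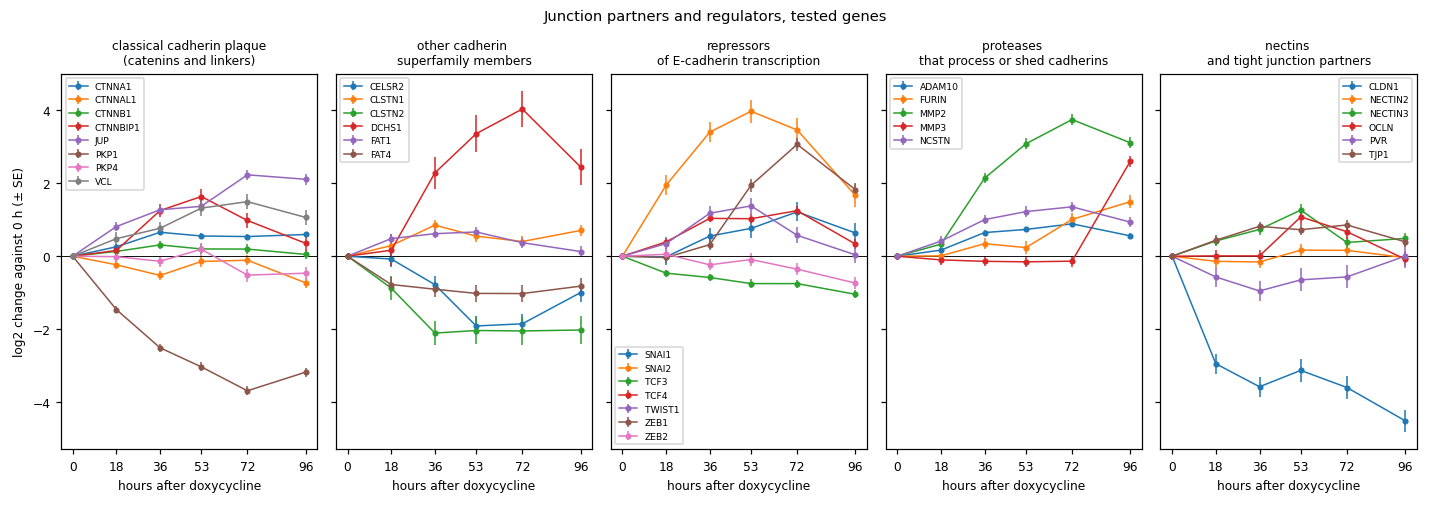
Log2 change against 0 h, with its SE from limma, of the tested genes of 5 lists, against hours after doxycycline. DCHS1 reaches 4.03 and MMP2 3.74 at 72 h, CLDN1 is at a fitted -4.50 at 96 h, where its arrays are below log2 4, and MMP3 leaves 0 only at 96 h.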

How the data were processed

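RNA of 16 samples was measured on Affymetrix arrays of 22277 probe sets. The deposited log2 values come from GCRMA, as the submitters' processing notes name it for the authors' work. No version or setting is given in the sources used here. The log2 scale was inferred from values of 0.388 to 15.2. GCRMA compresses dim values, so sizes near log2 4 are uncertain.

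Genes came from the platform annotation. Of 19070 probe sets with 1 symbol, the brightest by mean stood for each of 11963 genes, and 7304 genes reached log2 4 on at least 2 arrays. R 4.3.3 with limma 3.58.1 fitted 1 mean per time (lmFit, contrasts.fit, eBayes with trend, 10 residual degrees of freedom), with Benjamini-Hochberg adjustment over all tested genes at 0.05. Comparisons of consecutive times were added after values were seen. Lower bounds set the brighter group's mean against log2 4 where no probe set of the gene reached it in the dimmer group. Probe sets of 1 gene were compared in a fit over all probe sets. Promoters were read from RefSeq GRCh38.p14 windows, the start farthest upstream where several were listed. Python 3.11.15 with matplotlib 3.10.9 drew the figures.

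Members and lists were chosen with earlier results of these data known. All called members are named, with every array for those changed by at least 1, and in each list the 3 called genes with the smallest adjusted p at 96 h; others named, CTNNB1 among them, were chosen after their values were seen. Deviations of same-numbered arrays correlated at 0.51 to 0.63 (0 h and 18 h), 0.21 to 0.30 (0 h and 36 h) and 0.24 to 0.37 (18 h and 36 h), so these numbers were taken as pairs, though the labels state no pairing. Numbers 2 and 3 are not told apart by this, since arrays of different number correlated at up to 0.55 (0 h and 18 h) and 0.36 (18 h and 36 h). Where 53 h, 72 h or 96 h was involved, same-numbered arrays correlated from -0.21 (18 h and 96 h) to 0.25 (53 h and 96 h). The replicate block used the numbers of these times too, though no pairing is established there. On simulated data of 7304 genes, changes of 1 were recovered for 83.6% of genes at 18 h and 80.6% at 96 h, and changes of 0.5 for 49.3% and 37.3%, with 8 false calls in each.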

Additional observations from a re-analysis of the deposited data

Results flagged for a closer look

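Among the 15 tested members, the 4 arrays at 0 h held a single array far from the others for 4 genes, by a gap over range above the 95% critical value of Dixon's test. Chance gives about 1 in 20 such groups. CDH11 read 11.727 on replicate 4, against 12.055 to 12.108 on the others (ratio 0.859). PCDH9 read 2.802 on replicate 1, against 2.913 to 2.923 (0.919). PCDHB12 read 5.682 on replicate 2, against 5.922 to 5.932 (0.962). PCDHB6 read 3.728 on replicate 4, against 3.850 to 3.868 (0.873). Without 0 h replicate 4, CDH11 at 36 h changed by 0.16 (limma adjusted p = 0.126).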

How the results depend on the processing

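Of 41 member changes past the threshold against 0 h and at 96 h against 18 h, 1041 of 1083 alternative values stayed past it and 42 did not, and none changed sign. Of the 49 such changes that had not passed, 40 of 1269 alternative values did, and 26 changed sign. These lost calls concerned CDH11 at 36 h and 72 h, CDH8 at 18 h, PCDHB12 at 72 h, 96 h and in the comparison of 96 h with 18 h, and PCDHB6 at 96 h. CDH8 at 18 h was -0.72 (adjusted p = 0.0715) when replicate 1 of 0 h, 18 h and 36 h was omitted, a setting chosen after seeing the data. CDH10 at 36 h (0.42, from dim values only), PCDHB3 at 53 h (0.36) and PCDHGA8 at 18 h (0.65) then passed (adjusted p = 0.0401, 0.0255 and 0.0457). Of 11 calls between consecutive times, whose alternatives were chosen after seeing the data, 274 of 286 values stayed past the threshold, 12 did not (PCDHB3 and PCDH9 between 53 h and 72 h, PCDH7 between 36 h and 53 h, PCDH7 and PCDH9 between 72 h and 96 h) and none changed sign. Of 49 that had not passed, 29 of 1282 values did and 51 changed sign.

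Counts of members called depended on the filter and on size. With no filter, of 45 members 13 (28.9%) passed at 36 h, 12 (26.7%) at 53 h and 17 (37.8%) at 72 h. In the comparison of 96 h with 18 h 13 (28.9%) did, and by the F test 21 (46.7%). Of all 11963 genes 54.0%, 47.0%, 55.0%, 35.9% and 65.1% passed in these. The 9, 6 and 10 members under the filter that then passed at 36 h, 53 h and 72 h had median sizes of 0.03, 0.06 and 0.05. With a log2 change of at least 1 required, 2, 3, 5 and 6 of 15 members passed at 18 h, 36 h, 72 h and 96 h (13.3%, 20.0%, 33.3% and 40.0%). Of 7304 genes 400, 1883, 2451 and 1673 did. Without _x_at and _s_at probe sets, 7 members and 4431 genes were left to test. Of these members, 5 passed at 72 h and 5 at 96 h, 4 in the comparison of 96 h with 18 h and 5 by the F test. Of these genes, 68.2% (3020), 60.8%, 47.5% and 83.0% did. Leaving out single arrays gave 3 to 5, 4 to 6, 6 to 7, 6 to 9 and 9 to 11 calls from 18 h to 96 h, 7 to 9 at 96 h against 18 h, and 9 to 10 by the F test. Over all genes these omissions gave 1353 to 2443, 4399 to 4843, 4195 to 5014, 4334 to 5149 and 3686 to 4625 calls from 18 h to 96 h. At 96 h against 18 h they gave 2810 to 3820, and by the F test 5903 to 6267. Between consecutive times, 4, 2, 3 and 2 members passed. With no filter 7 (15.6%) did between 18 h and 36 h and 5 (11.1%) between 72 h and 96 h, beside 28.2% and 15.1% of all genes. With a change of at least 1 required, the counts of the 4 steps were 2, 1, 1 and 1, beside 890, 334, 385 and 659 of 7304 genes. Without _x_at and _s_at probe sets 1 passed in each of the last 3 steps, beside 12.7%, 16.2% and 25.4% of 4431 genes. With a filter at log2 5 1 passed between 36 h and 53 h and 1 between 72 h and 96 h. With the mean of all probe sets 0 passed in the last step. With array weights, or omitting replicate 1, 5 passed between 53 h and 72 h. Omitting replicate 1 also raised the count over all genes in this step, from 1215 to 1867. Leaving out single arrays gave 4 to 5, 1 to 2, 1 to 5 and 1 to 3 calls in the 4 steps, beside 2518 to 3368, 321 to 1155, 468 to 1445 and 1234 to 2227 of all genes. The step between 53 h and 72 h had 5 calls without 18 h or 36 h replicate 1 and 1 without 53 h replicate 1 or 72 h replicate 2. The replicate block gave 4, 4, 6, 7 and 9 calls from 18 h to 96 h, 8 at 96 h against 18 h and 10 by the F test, and among the comparisons with 0 h and of 96 h with 18 h it removed the calls of CDH11 at 36 h, PCDHB12 at 72 h and PCDHB6 at 96 h. Over all genes, 2150 were called at 18 h, against 3546 with array weights, 1269 with replicates 2 and 3 averaged and 1353 without 18 h replicate 1. The cause of these differences was not tested. Where no figure for all genes stands beside a count of members, the count is not read as a result about the members.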

Other observations

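Outside the members, 9 probe sets are annotated to several protocadherin genes, and 3 of them were below log2 4 on all arrays. Probe set 210674_s_at is shared by 15 genes of the alpha cluster, none of whose 4 members with a probe set of their own was tested. In time order from 0 h to 96 h it averaged 8.75 ± 0.27, 9.55 ± 0.15, 10.47 ± 0.06, 10.72 ± 0.06, 10.56 ± 0.01 and 9.72 ± 0.05 (SD, n = 4, 3, 3, 2, 2 and 2). Every array after doxycycline was above every 0 h array. From 18 h on its log2 changes against 0 h were 0.80, 1.72, 1.97, 1.81 and 0.97 (limma adjusted p at most 0.000506 over 12314 probe sets). Between 72 h and 96 h it fell by 0.84 (adjusted p = 0.00202). Which genes of the cluster gave this signal cannot be read from the probe set. Probe sets shared by PCDHA5 and PCDHA6, and by PCDHA2 and PCDHA3, were 1.00 and 0.70 higher at 72 h (adjusted p = 0.000431 and 0.00425), both still near log2 4. Those shared by PCDH11X and PCDH11Y fell. Of them, 210292_s_at averaged 5.41 at 0 h, 3.65 at 18 h and 2.70 at 96 h (limma adjusted p = 0.000228 and 2.2e-06 against 0 h). The others, 211227_s_at and 217049_x_at, averaged 4.54 and 4.42 at 0 h and 3.01 and 3.48 at 96 h (adjusted p = 0.000535 and 0.0213). All their 96 h arrays were below log2 4, so the sizes are uncertain.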
